A study of Mus musculus with 16 samples.

Results

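The 9 genes described here are transcripts that mark mature fat cells. They were chosen by name: adiponectin (Adipoq), adipsin or complement factor D (Cfd), resistin (Retn), leptin (Lep), perilipin 1 (Plin1), Cidec, carbonic anhydrase 3 (Car3), the fatty acid carrier Fabp4 and lipoprotein lipase (Lpl). All 9 are among the 39328 genes measured by RNA sequencing of the mouse colon. The 16 libraries fall into 4 groups of 4. DSS_CS are wild-type ICR mice, an outbred stock, that were born by cesarean section and drank 3% dextran sulfate sodium (DSS) for 8 days, and DSS_VD are wild-type ICR mice born by vaginal delivery that drank the same DSS. CON_CS and CON_VD are wild-type ICR mice of cesarean and of vaginal birth that drank normal water. DSS is a sulfated polymer that injures the colon lining and inflames the colon. The mice carry no engineered allele per the labels. No label ties a library to a mouse of its own, so the spread behind each p-value is that between libraries, which may be technical.

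White fat cells store triglyceride in 1 large droplet and act as an endocrine tissue. Plin1 and Cidec coat and enlarge the droplet, Lpl and Fabp4 bring fatty acids in, and Adipoq, Lep, Retn and Cfd are secreted into the blood. The colon itself is not a fat store, but it is suspended from the mesentery, whose fat lies against its outer wall and surrounds the vessels that supply it. The labels name the tissue only as colon, and nothing in them says how much of the attached fat was removed.

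Levels are given in FPKM, fragment numbers scaled by gene length and library depth, which can be compared between genes. The genes of epithelial identity (Epcam, Cdh1 and 7 others) summed to 609 to 1887 FPKM in DSS_CS, 1817 to 3915 in DSS_VD, 3943 to 4087 in CON_CS and 3481 to 3974 in CON_VD, so colon epithelium was present in all 16 libraries. The 9 fat-cell genes together summed to 41.4, 66.2, 52.2 and 218 FPKM in DSS_CS libraries 1 to 4 and to 27.8, 12.3, 49.0 and 28.8 FPKM in DSS_VD. They summed to 4.59, 8.31, 5.59 and 3.20 FPKM in CON_CS and to 21.0, 4.61, 109 and 17.4 FPKM in CON_VD. The highest of these sums was 0.0707% of its library. All 4 DSS_CS sums lay above all CON_CS sums, whereas DSS_CS overlapped DSS_VD, and DSS_VD overlapped CON_VD. Lpl and Fabp4, which other cells also make, held most of the DSS_VD sums. They stood at 15.7 and 10.1 FPKM in DSS_VD replicate 1 and at 5.14 and 5.64 FPKM in replicate 2. Cfd and Adipoq were listed at 0 in both of these libraries. In bulk tissue, fewer fat cells, less RNA per fat cell and RNA from other cells cannot be told apart.

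Some libraries held transcripts of organs outside the gut. Pbsn, a secreted protein of the mouse prostate, stood at 128 FPKM in DSS_CS replicate 3, 1355 in DSS_CS replicate 4 and 185 in CON_CS replicate 1, and at or below 0.53 FPKM elsewhere. With Spink1 left out, which the gut also makes, the 9 other male accessory gland genes found summed to 156, 1643 and 278 FPKM in these 3 libraries and to at most 4.41 FPKM in the others. CON_VD replicate 3, which together with DSS_CS replicate 4 was richest in fat-cell transcripts, had 0.0757 FPKM of them. These 4 libraries are called the libraries that stand apart. CON_VD replicate 3 is among them for its fat-cell levels, so leaving it out is no independent check of those levels. For some of the 9 genes, each comparison is also given without those it holds. Erythrocyte genes also differed, with summed levels of 903 to 9731 FPKM in DSS_CS, 241 to 975 in DSS_VD, 28.4 to 47.7 in CON_CS and 53.6 to 332 in CON_VD. The part of this tissue make-up in the fat-cell results was not tested.

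**Figure D1:**
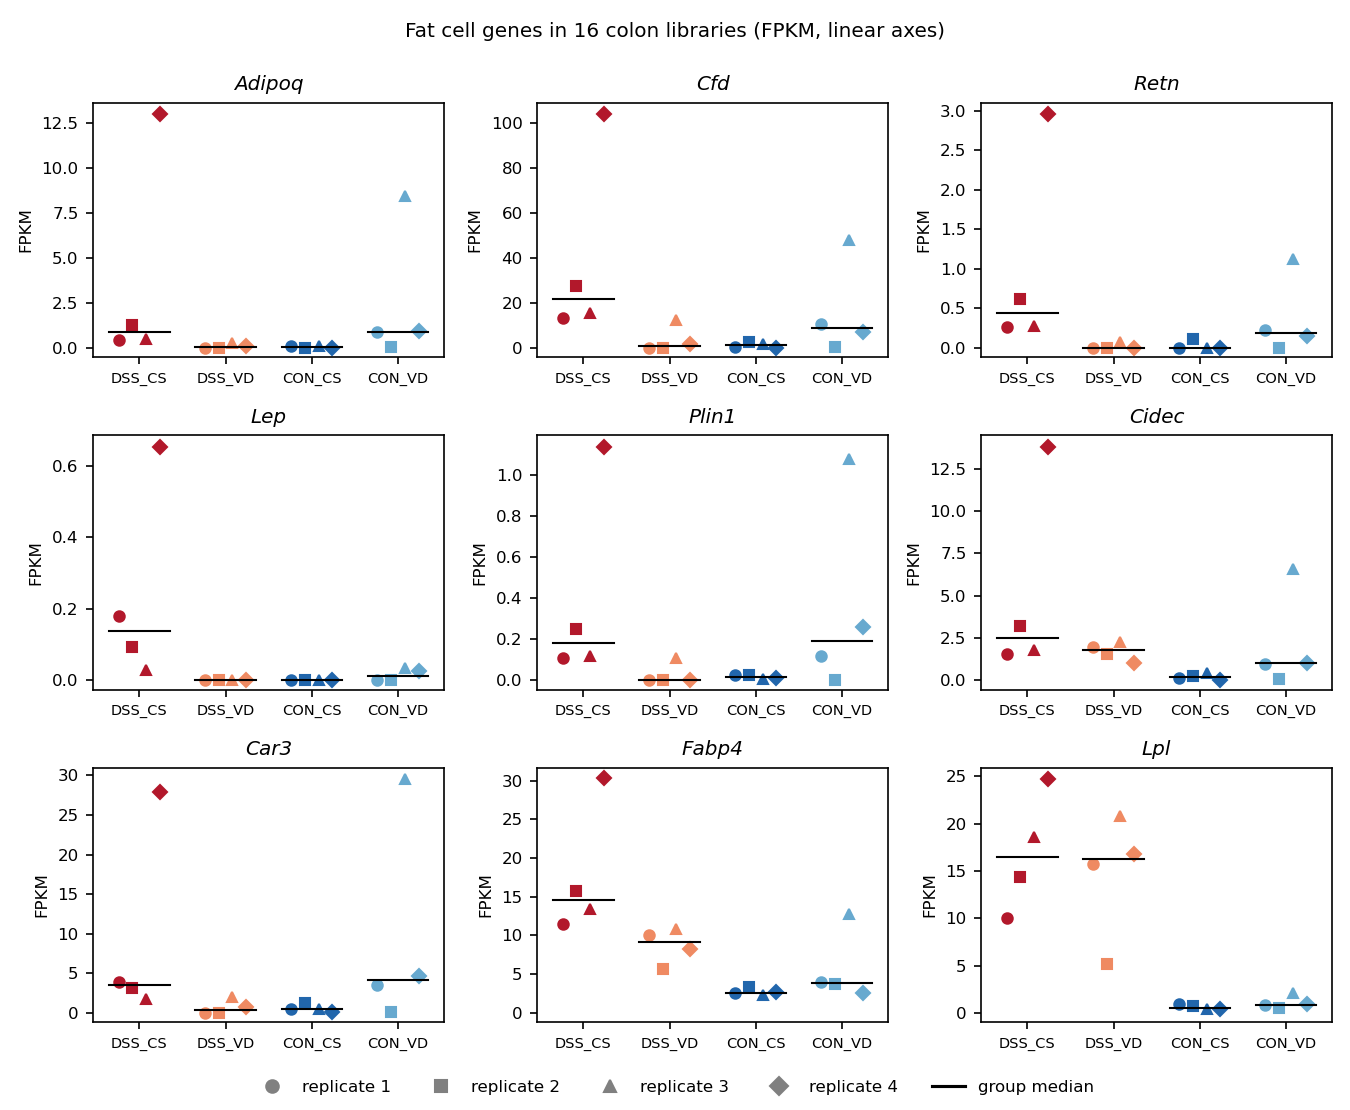
FPKM of the 9 fat-cell genes, 1 panel each on its own linear axis, in the 4 libraries of DSS_CS, DSS_VD, CON_CS and CON_VD (left to right), with a marker shape for each replicate number and a line at the group median. DSS_CS replicate 4 is the highest point of 8 panels, and CON_VD replicate 3, at 29.5 FPKM, is the highest for Car3.

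Adipoq, the insulin-sensitising hormone made almost exclusively by fat cells, lies on chromosome 16 (ENSMUSG00000022878, GRCm38 chr16:23146536-23158028, plus strand). It stood at 0.454, 1.28, 0.467 and 13.0 FPKM in DSS_CS, against 0, 0, 0.259 and 0.109 FPKM in DSS_VD. In CON_CS it stood at 0.0977, 0, 0.0781 and 0 FPKM, against 0.890, 0.0723, 8.46 and 0.913 FPKM in CON_VD. All 4 DSS_CS values lay above all DSS_VD and all CON_CS values, but 2 of them were under 1 FPKM, and a single library carried most of the level in both DSS_CS and CON_VD.

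Cfd encodes the serine protease that cleaves complement factor B in the alternative complement pathway, and had the highest mean level of the 9 genes over the 16 libraries (ENSMUSG00000061780, chr10:79890853-79892655, plus strand). It reached 13.4, 27.4, 15.6 and 104 FPKM in DSS_CS, against 0, 0, 12.6 and 1.91 FPKM in DSS_VD. It reached 0.395, 2.58, 1.85 and 0 FPKM in CON_CS, against 10.5, 0.214, 47.8 and 6.92 FPKM in CON_VD. DSS_CS stood apart from DSS_VD by a narrow gap, since DSS_VD replicate 3 was just below the lowest DSS_CS library, and CON_CS overlapped CON_VD through CON_VD replicate 2.

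Retn, a small cysteine-rich protein that mouse fat cells secrete (ENSMUSG00000012705, chr8:3655770-3660110, plus strand), was present at 0.262, 0.618, 0.273 and 2.95 FPKM in DSS_CS and at 0, 0, 0.0802 and 0 FPKM in DSS_VD. It was present at 0, 0.110, 0 and 0 FPKM in CON_CS and at 0.231, 0, 1.12 and 0.145 FPKM in CON_VD. Its libraries took the same order as those of Adipoq at the top, with DSS_CS replicate 4 first and CON_VD replicate 3 second, and DSS_CS lay above all of DSS_VD and CON_CS.

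Lep, the satiety hormone whose blood level follows fat mass (ENSMUSG00000059201, chr6:29060220-29073877, plus strand), had the lowest mean level of the 9. It had 0.180, 0.0934, 0.0302 and 0.652 FPKM in DSS_CS and was listed at 0 in all 4 DSS_VD libraries. It was likewise listed at 0 in all 4 CON_CS libraries, with 0, 0, 0.0345 and 0.0262 FPKM in CON_VD. DSS_CS overlapped CON_VD through its replicate 3. No fold change is given against a group in which every library is listed at 0.

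Plin1, which guards the droplet surface and gates access of lipases to it (ENSMUSG00000030546, chr7:79720218-79732903, minus strand), had 0.109, 0.251, 0.117 and 1.14 FPKM in DSS_CS and 0, 0, 0.107 and 0 FPKM in DSS_VD. It had 0.0252, 0.0238, 0.00890 and 0.00999 FPKM in CON_CS and 0.121, 0, 1.08 and 0.258 FPKM in CON_VD. DSS_CS and DSS_VD did not overlap, but their nearest libraries were almost equal.

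Cidec, which fuses small droplets into large ones (ENSMUSG00000030278, chr6:113424634-113435760, minus strand), had 1.54, 3.22, 1.81 and 13.8 FPKM in DSS_CS and 1.99, 1.56, 2.26 and 1.02 FPKM in DSS_VD. It had 0.160, 0.281, 0.455 and 0 FPKM in CON_CS and 0.988, 0.0521, 6.58 and 1.02 FPKM in CON_VD. It was above 1 FPKM in every DSS_VD library, where DSS_CS and DSS_VD overlapped, and no CON_CS library reached the lowest DSS library.

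Car3, a carbonic anhydrase abundant in white fat and also in skeletal muscle (ENSMUSG00000027559, chr3:14863512-14872523, plus strand), had 3.86, 3.20, 1.81 and 28.0 FPKM in DSS_CS and 0.0372, 0, 2.04 and 0.697 FPKM in DSS_VD. It had 0.425, 1.23, 0.491 and 0.165 FPKM in CON_CS and 3.51, 0.0594, 29.5 and 4.67 FPKM in CON_VD. DSS_VD replicate 3 reached above the lowest DSS_CS library, and CON_VD overlapped every other group. The 10 skeletal muscle genes examined summed to 5.99 to 9.62 FPKM in DSS_CS, 4.60 to 11.9 in DSS_VD, 7.42 to 11.5 in CON_CS and 3.82 to 12.3 in CON_VD, with Myh4 listed at 0 in all 16 libraries.

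Fabp4, a fatty acid carrier of fat cells that macrophages and capillary endothelium also make (ENSMUSG00000062515, chr3:10204088-10208576, minus strand), had 11.5, 15.7, 13.5 and 30.3 FPKM in DSS_CS and 10.1, 5.64, 10.9 and 8.20 FPKM in DSS_VD. It had 2.57, 3.37, 2.30 and 2.66 FPKM in CON_CS and 4.01, 3.70, 12.7 and 2.50 FPKM in CON_VD. Every DSS_CS value was above every DSS_VD value. The CON_CS libraries lay close together, and CON_VD replicate 3 stood above the rest of its group and above every DSS_VD library.

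Lpl, the enzyme that frees fatty acids from circulating triglyceride and that macrophages make too (ENSMUSG00000015568, chr8:68880491-68907448, plus strand), had 10.0, 14.4, 18.6 and 24.7 FPKM in DSS_CS and 15.7, 5.14, 20.9 and 16.9 FPKM in DSS_VD. It had 0.917, 0.716, 0.400 and 0.363 FPKM in CON_CS and 0.789, 0.507, 2.15 and 0.918 FPKM in CON_VD. It was the gene among the 9 in which both DSS groups stood clear of both water groups, and in which the delivery groups overlapped under DSS as well as under water.

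The differences were tested with limma on log2(FPKM + 1) over all genes that reached 1 FPKM in at least 4 of the fitted libraries, at an adjusted p under 0.05. Adipoq, Plin1, Retn and Lep were below this filter in every comparison. Fold changes on this scale understate the changes of low genes.

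Among mice on DSS, Cfd was higher after cesarean than after vaginal birth. It averaged 40.1 ± 42.9 FPKM in DSS_CS and 3.62 ± 6.04 FPKM in DSS_VD (SD, n = 4 each), a log2 difference of 3.54 ± 0.93 (SE, adjusted p = 0.0426). Fabp4 averaged 17.8 ± 8.53 FPKM in DSS_CS and 8.69 ± 2.32 FPKM in DSS_VD, a log2 difference of 0.89 ± 0.30 that missed the threshold (adjusted p = 0.0777). Car3 differed by 2.07 ± 0.71 (adjusted p = 0.0814), Cidec by 0.79 ± 0.51 (adjusted p = 0.325) and Lpl by 0.27 ± 0.41 (adjusted p = 0.695). Thus 1 of the 5 tested genes rose, beside 7.89% of all genes tested that were higher and 5.54% that were lower. Cfd reached 1 FPKM in 2 of 4 DSS_VD libraries and Car3 in 1, and both in 4 of 4 DSS_CS libraries. They passed the filter only through DSS_CS, so the count is not support for a rise. The DSS_CS libraries lay wholly above the DSS_VD libraries for Cfd, Adipoq, Plin1, Fabp4, Retn and Lep, 6 of the 9 genes, against 8.75% of all genes above 0 in at least 1 of the 8 libraries. The fat-cell genes largely varied together across libraries, so these 6 are not separate evidence and cannot be weighed against that share. The median difference of all genes tested was 0.06. The Cfd call was lost in 11 of 16 alternative settings, among them leaving out DSS_CS replicate 4 (2.92, adjusted p = 0.0787), DSS_CS replicate 2 or 3 or DSS_VD replicate 1, 2 or 4 (3.09 to 3.80, adjusted p = 0.0753 to 0.110), or DSS_CS replicates 3 and 4 together (3.01, adjusted p = 0.173), and the difference stayed above 0 in all 16. Lpl stood at -0.12 without DSS_CS replicates 3 and 4, on the other side of 0. In the same comparison 6 of 9 epithelial genes fell and 3 of 5 erythrocyte genes rose. Without DSS_CS replicates 3 and 4 limma called 0 of 9 and 0 of 5, with 6 and 2 at an unadjusted p under 0.05. The part of these genes in the result was not tested.

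**Figure D2:**
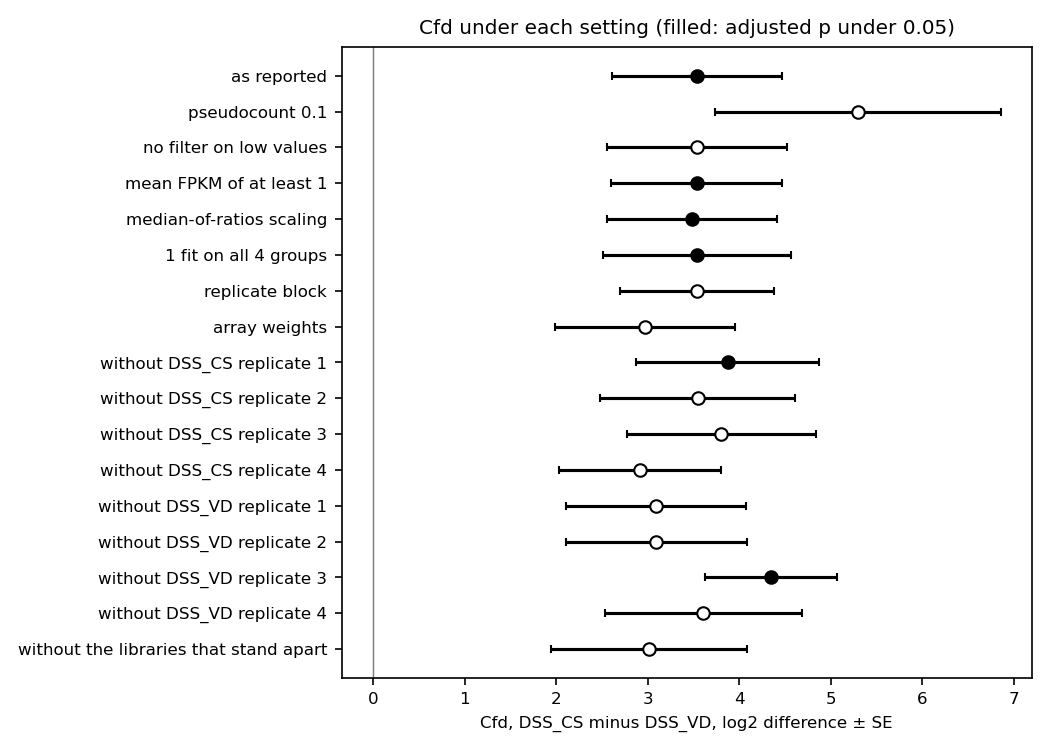
Log2 difference of Cfd, DSS_CS minus DSS_VD, on log2(FPKM + pseudocount) with its SE (bars) in the fit as reported and in each alternative setting, filled where the adjusted p is under 0.05. The difference is above 0 in every row, and most rows are open.

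In mice on normal water none of the 3 genes above the filter passed the test, and CON_CS and CON_VD overlapped for all 9. Cfd averaged 1.21 ± 1.21 FPKM in CON_CS and 16.4 ± 21.4 FPKM in CON_VD (SD, n = 4 each), a log2 difference of -2.14 ± 0.97 (SE, adjusted p = 0.264). Car3 differed by -1.81 ± 0.83 (adjusted p = 0.272) and Fabp4 by -0.65 ± 0.36 (adjusted p = 0.358). The other 6 were below the filter. Of the 3 tested, 0 were called by limma, and 0 had an unadjusted p under 0.05. Over all genes tested, 0.407% were called in either direction. Without CON_CS replicate 1 and CON_VD replicate 3 the differences were -1.15 for Cfd and -0.21 for Fabp4.

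In vaginally born mice Lpl rose with DSS, averaging 14.6 ± 6.71 FPKM in DSS_VD and 1.09 ± 0.725 FPKM in CON_VD (SD, n = 4 each), a log2 difference of 2.82 ± 0.39 (SE, adjusted p = 4.94e-04). The other 4 tested genes did not pass, with differences of 0.71 ± 0.39 for Fabp4 (adjusted p = 0.181), 0.16 ± 0.51 for Cidec (adjusted p = 0.823), -1.77 ± 1.15 for Cfd (adjusted p = 0.251) and -1.82 ± 0.87 for Car3 (adjusted p = 0.126). That is 1 of 5 tested genes, beside 24.0% of all genes tested that were higher and 17.0% that were lower. Lpl reached 1 FPKM in 1 of 4 CON_VD libraries and 4 of 4 DSS_VD libraries, so it passed the filter only through DSS_VD. Lpl was also the 1 gene of 9 whose groups did not overlap, where 14.7% of all genes lay wholly higher in DSS_VD. Without CON_VD replicate 3, Lpl stood at 3.03 and Fabp4 at 1.12 (adjusted p = 0.00622), which passed the test there. That library was the highest of CON_VD for both genes and was picked for its fat-cell levels. Leaving it out therefore raises these differences by construction. Without CON_VD replicate 2, Car3 stood at -2.60 (adjusted p = 0.0200). With the replicate number as a block, Cfd and Car3 passed as lower in DSS_VD (adjusted p = 0.0261 and 0.0239).

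In cesarean-born mice Cfd, Lpl, Fabp4, Car3 and Cidec, the 5 tested genes, rose with DSS. Lpl and Cidec reached 1 FPKM in 0 of 4 CON_CS libraries, Car3 in 1 and Cfd in 2, and each of them in 4 of 4 DSS_CS libraries. These genes passed the filter only through DSS_CS, and the count of 5 is not support for a shared rise. Cfd rose by 3.90 ± 0.65 (SE, adjusted p = 7.79e-04), Lpl by 3.43 ± 0.25 (adjusted p = 5.25e-06) and Fabp4 by 2.24 ± 0.26 (adjusted p = 8.37e-05). Car3 rose by 2.06 ± 0.65 (adjusted p = 0.0216) and Cidec by 1.92 ± 0.50 (adjusted p = 0.00896). Lpl averaged 16.9 ± 6.27 FPKM in DSS_CS and 0.599 ± 0.265 FPKM in CON_CS, and Fabp4 averaged 17.8 ± 8.53 FPKM in DSS_CS and 2.73 ± 0.454 FPKM in CON_CS (SD, n = 4 each). Of all genes tested, 34.4% were higher and 25.9% lower in DSS_CS. All 9 genes, the 4 low ones included, lay wholly higher in DSS_CS than in CON_CS, where 21.2% of all genes did. As the genes largely varied together, these 9 are not separate evidence either. Without DSS_CS replicates 3 and 4 and CON_CS replicate 1, 2 of the genes passed the filter, and both were called, Cfd at 3.22 and Fabp4 at 1.95. Without CON_CS replicate 4, Car3 missed the threshold (1.93, adjusted p = 0.0592).

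The difference between these DSS responses, cesarean minus vaginal, was tested as an interaction over all 16 libraries. It was 5.68 ± 1.45 for Cfd (SE, adjusted p = 0.0237) and 3.88 ± 1.18 for Car3 (adjusted p = 0.0442), so 2 of 5 tested genes were higher, beside 6.68% of all genes tested that were higher and 6.55% that were lower. It was 1.54 ± 0.51 for Fabp4 (adjusted p = 0.0564), 1.76 ± 0.78 for Cidec (adjusted p = 0.139) and 0.62 ± 0.50 for Lpl (adjusted p = 0.436). With DSS_CS replicate 4 and CON_VD replicate 3 left out together, Cfd stood at 4.22 (adjusted p = 0.0636) and Car3 at 2.31 (adjusted p = 0.0726). Neither passed the test there, nor without all 4 libraries that stand apart, where Cfd stood at 4.16 (adjusted p = 0.157). The Car3 call was lost in 17 of 24 alternative settings, 12 of them leaving out a single replicate, any of CON_CS 1 to 4, CON_VD 1, 3 or 4, DSS_CS 2 or 4 and DSS_VD 1, 2 or 4 (3.04 to 4.08, adjusted p = 0.0575 to 0.0825). Fabp4 passed without DSS_CS replicate 1 (1.70, adjusted p = 0.0393) or CON_VD replicate 4 (1.78, adjusted p = 0.0339). It also passed with array weights in limma (adjusted p = 0.0271), and kept its side of the threshold in the other 21 of 24 settings. The comparisons share their groups, so their values are not separate evidence.

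**Figure D3:**
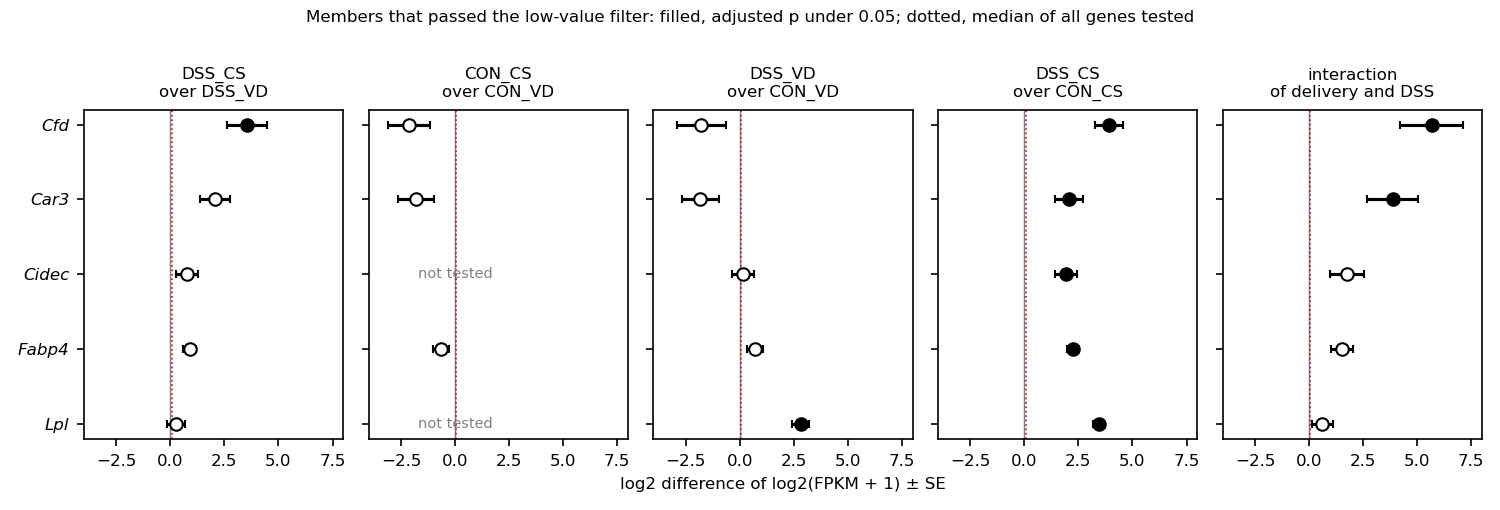
Log2 difference on log2(FPKM + 1) with its SE (bars) of the 5 tested fat-cell genes in the 5 comparisons, filled where the adjusted p is under 0.05, with a dotted line at the median of all genes tested. All 5 are filled for DSS_CS over CON_CS, and Cfd and Car3 for the interaction.

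The low genes were also fitted with no filter on low values. No value is given for Lep, which is listed at 0 throughout DSS_VD and CON_CS. Between DSS_CS and DSS_VD, Retn then differed by 0.81 ± 0.35 (SE, adjusted p = 0.260), Adipoq by 1.40 ± 0.70 (adjusted p = 0.333) and Plin1 by 0.39 ± 0.20 (adjusted p = 0.352). In the interaction, Adipoq stood at 2.64 ± 0.98 (adjusted p = 0.156) and Retn at 1.17 (adjusted p = 0.157). None of these values passed the test, although DSS_CS and DSS_VD did not overlap for any of these genes.

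Within groups the genes shared their highest library. DSS_CS replicate 4 was the highest of its group for 9 of 9 genes, where it was the highest for 23.2% of all genes above 0. CON_VD replicate 3 was the highest of its group for 9 of 9, against 15.96% of all genes. Both held at once for 9 of 9 fat-cell genes and for 3.51% of all genes. These libraries were singled out above for their high fat-cell levels. The counts therefore describe that choice and are not evidence of a shared pattern. In DSS_VD, replicate 3 was the highest for 8 of 9, against 21.3% of all genes, with Lep listed at 0. It was likewise looked at because its sum of the fat-cell genes was the highest of its group. DSS_VD replicates 1 and 2, by contrast, had 5 and 6 of the 9 genes listed at 0.

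Proportions to Adipoq, taken here as a yardstick of fat-cell RNA, differed in how widely they ranged. The 7 libraries with at least 0.3 FPKM of Adipoq were all of DSS_CS and CON_VD replicates 1, 3 and 4. In them, Retn ran at 0.133 to 0.585 of the Adipoq level (median 0.260) and Plin1 at 0.0876 to 0.283 (median 0.196). Car3 ran at 2.16 to 8.50 times Adipoq (median 3.86) and Cfd at 5.65 to 33.5 times (median 11.8). Lpl, in contrast, ran at 0.254 to 39.8 times Adipoq (median 1.91) and Fabp4 at 1.505 to 28.8 times (median 4.50), the widest and the next widest of these 6 ranges as a ratio of highest to lowest. Cidec ran at 0.778 to 3.88 times Adipoq (median 1.12). Lep, the lowest gene, ran from 0 to 0.397 of the Adipoq level (median 0.0503), so its range has no such ratio. Lpl and Fabp4 are also expressed outside fat cells, and the part of other cells in these ranges was not tested.

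Across the 16 libraries, each gene was also set against the mean log2(FPKM + 1) of the other 8, as a description. Pearson's r was 0.942 for Cidec, 0.902 for Retn, 0.871 for Cfd, 0.864 for Plin1 and 0.851 for Adipoq. It was 0.847 for Fabp4, 0.840 for Car3, 0.752 for Lep and 0.479 for Lpl. Over the 14 libraries other than DSS_CS replicate 4 and CON_VD replicate 3 it lay between 0.575 for Lpl and 0.843 for Cidec. The libraries share their groups, so these values mix group differences with the spread inside groups.

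**Figure D4:**
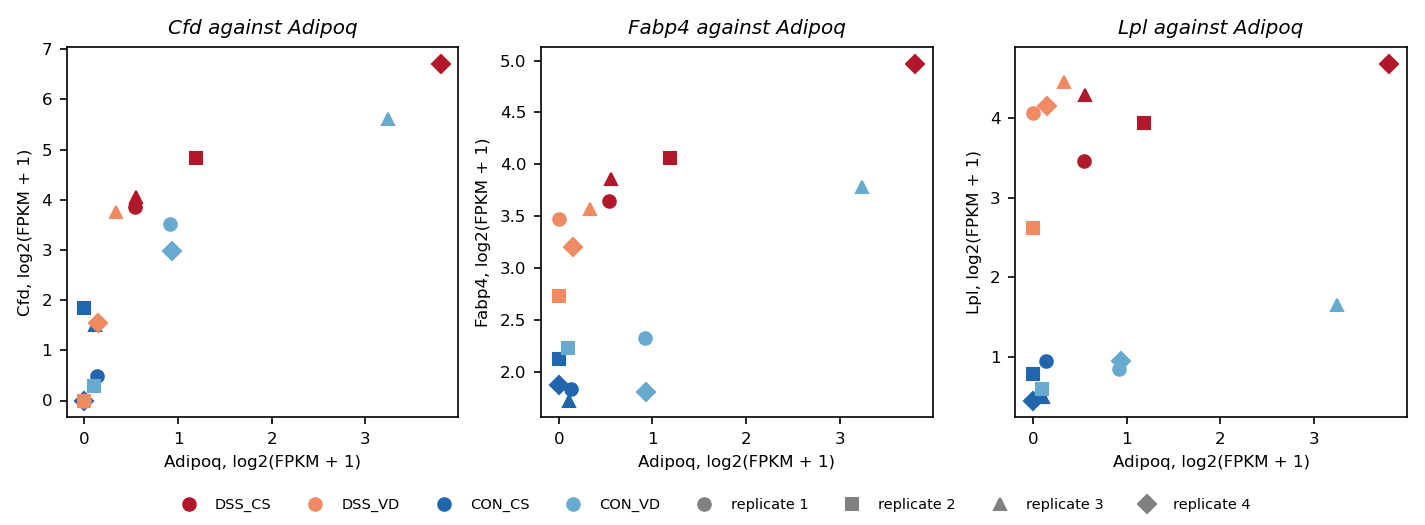
Log2(FPKM + 1) of Cfd, Fabp4 and Lpl (vertical axes) against that of Adipoq (horizontal axes) in the 16 libraries, coloured by group. Cfd rises with Adipoq across groups, while Lpl splits into a high set of 8 DSS libraries and a low set of 8 water libraries.

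Among 15204 other genes, the 10 whose pattern over the 16 libraries was most like the mean of the 9 were Apoc1, Pkd2l2, Siah2, Gm15832, P2rx2, Ficd, Gm16062, Atg16l2, Tle1 and Fcor. Apoc1, an apolipoprotein of triglyceride-rich particles that inhibits Lpl, led with a Pearson's r of 0.938, and of 0.879 once group means were subtracted. Apoc1 stood at 1.72, 1.25, 1.01 and 3.10 FPKM in DSS_CS and at 0.50, 0.31, 0.99 and 0.62 FPKM in DSS_VD. It stood at 0.12, 0.12, 0.30 and 0 FPKM in CON_CS and at 0.63, 0.23, 1.11 and 0.73 FPKM in CON_VD. Like the fat-cell genes it was highest in DSS_CS replicate 4 and, within CON_VD, in replicate 3. The other 9 had r between 0.815 for Fcor and 0.904 for Pkd2l2.

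Where these genes start in the genome was examined for the motifs of the factors that drive fat-cell identity. PPAR gamma binds, with its RXR partner, AGGTCA half-sites repeated 1 base apart (the DR1 motif), and C/EBP proteins bind TTGCGCAA or looser forms (TTNNGNAA, of which TTGCGCAA is an instance). Promoter sequences from RefSeq (GRCm38.p6, 250 bases before to 50 after the start) were found for 6 of the 9 genes in 7 windows, and not for Fabp4, Lpl and Car3. Shown here are the 120 bases before the start of the 4 secreted-protein genes Lep, Adipoq, Cfd and Retn and of the droplet gene Plin1, each 5′ to 3′ on the gene's own strand, with matches to TTNNGNAA on either strand in capitals. They lie at chr6:29060101-29060220 (plus strand), chr16:23146416-23146535 (plus), chr10:79890733-79890852 (plus), chr8:3655650-3655769 (plus) and chr7:79732777-79732896 (minus). The starts are RefSeq starts, which need not match the gene limits given above. The Plin1 stretch lies inside the limits given for Plin1, and the Lep stretch ends on the first base of those given for Lep.
Lep: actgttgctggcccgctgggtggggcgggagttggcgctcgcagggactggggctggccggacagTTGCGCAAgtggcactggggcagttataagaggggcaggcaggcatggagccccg
Adipoq: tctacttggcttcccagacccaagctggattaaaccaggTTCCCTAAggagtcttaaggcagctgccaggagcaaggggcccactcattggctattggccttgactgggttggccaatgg
Cfd: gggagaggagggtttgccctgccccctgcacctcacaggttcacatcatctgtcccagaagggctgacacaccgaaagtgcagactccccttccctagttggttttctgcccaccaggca
Retn: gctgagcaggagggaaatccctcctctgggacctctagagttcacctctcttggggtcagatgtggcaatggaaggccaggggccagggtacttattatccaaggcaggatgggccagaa
Plin1: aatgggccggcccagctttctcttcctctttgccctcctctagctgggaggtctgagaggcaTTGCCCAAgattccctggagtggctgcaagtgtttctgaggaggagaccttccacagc

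The full C/EBP palindrome TTGCGCAA was in the Lep window, 55 bases before the start, and in 0.183% of the 32851 windows of all genes. The looser TTNNGNAA was in 5 of the 7 windows and 4 of the 6 genes (Lep, Adipoq, Plin1 and Cidec), where 40.7% of all windows held it. The DR1 motif was in 0 of the 7 windows and in 0.0396% of all windows. A match describes these letters only, and no match says only that the letters are not in the window.

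The receptors and partners of these proteins were counted as a list, as were further genes of fat cells. Counts of calls between DSS_CS and DSS_VD depend on the libraries, since over all genes 1923 were called with all libraries, 6 without DSS_CS replicates 3 and 4, and 0 to 2054 with 1 replicate left out. Over all genes the interaction called 2015, and 186 without the libraries that stand apart. Over the 6 lists described next, 9 of 52 tested genes were higher and 0 lower in DSS_CS over DSS_VD by limma. Of all genes tested, 7.89% were higher and 5.54% lower there. Without DSS_CS replicates 3 and 4, 0 of 48 were called, 10 of them at an unadjusted p under 0.05. In the interaction 10 of 54 were higher, beside 6.68% of all genes tested that were higher and 6.55% that were lower. Without the libraries that stand apart 2 of 51 were called, Sncg (1.95, adjusted p = 0.0261) and Me1 (1.27, adjusted p = 0.0432). Of 12 such genes, 7 rose and 2 fell among 10 tested in DSS_CS over CON_CS, beside 34.4% and 25.9% of all genes tested. Among 9 tested in DSS_VD over CON_VD, 5 rose and 1 fell, beside 24.0% and 17.0%, so the falls are no more frequent than over all genes. C3, the complement component that the Cfd pathway activates, averaged 262 ± 26.0 FPKM in DSS_CS and 7.93 ± 1.97 FPKM in CON_CS (SD, n = 4 each; log2 difference 4.91, adjusted p = 2.21e-07). Angptl4, a secreted inhibitor of Lpl, averaged 15.4 ± 3.11 FPKM in DSS_CS and 0.422 ± 0.266 FPKM in CON_CS (3.52, adjusted p = 8.00e-07). Adipor2, an adiponectin receptor, fell to 16.1 ± 2.46 FPKM in DSS_CS, against 35.5 ± 2.32 FPKM in CON_CS (-1.10, adjusted p = 5.36e-05). Between DSS_CS and DSS_VD 2 of 11 tested rose, beside 7.89% of all genes tested. They were C3 by 0.98 (adjusted p = 0.0372) and Masp1, whose product can activate adipsin, by 0.72 (adjusted p = 0.0309). Angptl4 (1.28, adjusted p = 0.0260) and Masp1 (0.73, adjusted p = 0.00785) were the 2 of 12 called in the interaction, where 6.68% of all genes tested were higher.

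The transcription factors of fat-cell formation did not move as 1 group. Pparg fell with DSS in cesarean-born mice. This master factor of fat cells, which colon epithelium also expresses, averaged 4.28 ± 1.13 FPKM in DSS_CS and 9.93 ± 1.78 FPKM in CON_CS (SD, n = 4 each), a log2 difference of -1.06 (adjusted p = 6.32e-04). Cebpb, an early factor that inflammation also induces, rose by 3.38 in the same comparison (adjusted p = 2.07e-06). Of the 9 factors, 4 rose and 2 fell among 7 tested in DSS_CS over CON_CS, and 2 rose among 6 tested in DSS_VD over CON_VD, to be read against the same shares of all genes. Cebpb was the 1 of 8 that rose in DSS_CS over DSS_VD (0.90, adjusted p = 0.0339), beside 7.89% of all genes tested.

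Of 17 further fat-cell genes, 7 were tested in each comparison. In DSS_CS over DSS_VD 2 were higher, beside 7.89% of all genes tested. In DSS_CS over CON_CS 4 were higher and 1 lower, beside 34.4% and 25.9%, so the fall is no more frequent than over all genes. In DSS_VD over CON_VD 0 were called by limma, beside 24.0% higher and 17.0% lower over all genes, and 2 had an unadjusted p under 0.05. Sncg, a synuclein of white fat and neurons, averaged 23.8 ± 9.33 FPKM in DSS_CS and 11.5 ± 0.872 FPKM in DSS_VD (SD, n = 4 each; log2 difference 0.93, adjusted p = 0.0360). Plin4, which coats nascent droplets, averaged 8.95 ± 2.56 FPKM in DSS_CS and 4.12 ± 0.607 FPKM in DSS_VD (0.93, adjusted p = 0.0313). Both were highest in DSS_CS replicate 2, Sncg at 37.6 FPKM and Plin4 at 12.6 FPKM, against 19.2 and 7.93 FPKM in DSS_CS replicate 4. The smooth muscle genes summed to 2771 FPKM in DSS_CS replicate 2 and to 1165 FPKM in replicate 4, and their part here was not tested. Without DSS_CS replicates 3 and 4 the differences were 1.24 for Sncg (adjusted p = 0.0733) and 1.17 for Plin4 (adjusted p = 0.0635). DSS_CS replicate 4 was the highest of 16 libraries for 7 of the 17, against 8.76% of all genes above 0, among them Cyp2e1, a cytochrome P450 of fat and liver, at 17.5 FPKM there, 4.93 FPKM in CON_VD replicate 3 and at most 1.27 FPKM elsewhere.

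Of 15 genes of triglyceride synthesis, 7 rose and 4 fell among 14 tested in DSS_CS over CON_CS, where 34.4% and 25.9% of all genes tested did, and 3 rose and 3 fell among 13 tested in DSS_VD over CON_VD, where 24.0% and 17.0% did. The falls in the first and both counts in the second are near these shares. Pck1, a glyceroneogenic enzyme that colon epithelium also makes, fell by 4.17 (adjusted p = 4.97e-05), and Cd36, a fatty acid transporter, rose by 1.54 (adjusted p = 3.61e-04). Me1, which supplies NADPH for lipid synthesis, was the 1 of 14 higher in DSS_CS over DSS_VD (0.82, adjusted p = 0.0313). This count is near the 7.89% of all genes tested. Of the 12 lipolysis and droplet genes, 6 rose and 0 fell among 10 tested in DSS_CS over CON_CS, and 3 rose in DSS_VD over CON_VD, against 34.4% and 24.0% of all genes. G0s2, an inhibitor of the lipase Pnpla2, averaged 25.9 ± 6.37 FPKM in DSS_CS and 6.95 ± 4.29 FPKM in DSS_VD (SD, n = 4 each; log2 difference 1.89, adjusted p = 0.0313). Its interaction was 2.22 (adjusted p = 0.00941). Hormone-sensitive lipase (Lipe) rose by 1.63 in DSS_CS over CON_CS (adjusted p = 5.92e-06) and by 0.95 in DSS_VD over CON_VD (adjusted p = 0.00246).

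The defining genes of brown fat were near 0. Ucp1, the brown fat uncoupler, was listed at 0 in 15 of the 16 libraries, and Zic1 in all 16. Of the 10 genes, 3 were tested in DSS_CS over CON_CS, where Dio2, a thyroid hormone deiodinase made by other cells too, rose by 3.56 (adjusted p = 1.87e-05) while Ppargc1a fell by 2.29 (adjusted p = 1.94e-06) and Cox7a1 by 2.64 (adjusted p = 6.71e-05).

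Markers of other cell types were set beside the fat-cell genes. All 10 endothelial genes rose in DSS_CS over CON_CS and in DSS_VD over CON_VD, with summed levels of 149 to 189 FPKM in DSS_CS, 71.9 to 130 in DSS_VD, 35.9 to 42.1 in CON_CS and 32.8 to 37.4 in CON_VD. Of the 10 macrophage genes, 9 rose in the same 2 comparisons, with sums of 1424 to 2228 FPKM in DSS_CS, 1147 to 1860 in DSS_VD, 241 to 299 in CON_CS and 235 to 549 in CON_VD. Lpl and Fabp4 can come from both cell types, and the part of these cells in their levels was not tested. All 8 B cell genes rose in both comparisons with water. Of the smooth muscle genes, 3 of 10 tested fell in DSS_CS over CON_CS and 7 of 9 in DSS_VD over CON_VD. Of all genes tested, 34.4% were higher and 25.9% lower in DSS_CS over CON_CS, so the 3 of 10 is near its share. In DSS_VD over CON_VD 24.0% were higher and 17.0% lower. In DSS_CS over DSS_VD all 10 smooth muscle genes had differences above 0. There limma called 0 of them, and 7 had an unadjusted p under 0.05. Of 9 fibroblast and fat progenitor genes tested in DSS_CS over DSS_VD, 4 rose and 1 fell, beside 7.89% and 5.54% of all genes tested. Without DSS_CS replicates 3 and 4 limma called 0 of 9 of them, with 5 at an unadjusted p under 0.05.

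Mesothelium, the cell sheet that covers the outer wall of the gut and the mesentery, was a low component in all groups. Its markers other than Krt19, which epithelium also makes, summed to 5.43 to 9.46 FPKM in DSS_CS, 2.15 to 10.5 in DSS_VD, 0.725 to 1.49 in CON_CS and 0.907 to 2.63 in CON_VD. Upk3b lay at 0.828 to 1.55 FPKM in DSS_CS and 0.0125 to 0.498 in DSS_VD. It lay at 0 to 0.0760 FPKM in CON_CS and 0.0798 to 0.740 in CON_VD. Wt1 lay at 0.547 to 1.08 FPKM in DSS_CS and at or below 0.277 FPKM in every other library. Of the 8 listed markers, 3 were tested in DSS_CS over DSS_VD and Gpm6a rose (0.56, adjusted p = 0.0313) but was below the filter without DSS_CS replicates 3 and 4, while in DSS_CS over CON_CS Msln (1.64, adjusted p = 2.33e-05) and Gpm6a rose and Krt19 fell. The sum without Krt19 was highest in DSS_VD replicate 4 and next highest in DSS_CS replicate 4. In DSS_VD replicate 4 most of it was 1 gene, Msln at 9.20 FPKM, with Upk3b at 0.0669 and Wt1 at 0.0932 FPKM. The part of these cells in the fat-cell differences was not tested.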

How the data were processed

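Total RNA was extracted from mouse colon with Trizol, per the labels' protocols. The authors deposited FPKM values, 1 table of 39328 genes by 16 libraries. Per the submitters' processing notes, the reads were handled with cutadapt and FastQC and the build was GRCm38, while the annotation, aligner and quantifier were not given in the sources used here. Read counts were not used here, so the depth of each library is unknown and no counting interval can be given. FPKM sums per library ran between 280135 and 343423. A value of 0 is described as listed at 0.

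Groups and replicate numbers came from the sample titles. Symbols came from a gene name table (39181 identifiers matched) and positions from GENCODE M21. In that annotation no other gene overlaps any of the 9. Values were tested as log2(FPKM + 1) by limma 3.58.1 (R 4.3.3), its variance prior following the mean level, for genes with at least 1 FPKM in at least 4 fitted libraries. They were two-sided, Benjamini-Hochberg adjusted over all genes tested, with a threshold of 0.05. Each pair of groups was fitted on its 8 libraries and the interaction on all 16. The script was tested on simulated data. Motifs and summaries were computed in Python 3.11.15 with pandas 2.3.3, and figures with matplotlib 3.10.9.

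The members, the 16 gene lists (164 of 165 symbols found) and the tests were chosen with earlier results of these data known. All 9 members are described. From the lists, the 4 of highest mean FPKM or any past the threshold could be named, and the 10 genes most like the member mean by Pearson's r are named. Alternatives were a pseudocount of 0.1, other filters, median-of-ratios scaling, 1 fit on all 4 groups, a replicate block, array weights, leaving out each replicate, and leaving out the libraries that stand apart. The last were chosen in part by the fat-cell levels themselves.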

Additional observations from a re-analysis of the deposited data

Results flagged for a closer look

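A group of 4 libraries was singled out where the gap between its highest or lowest library and the nearest other exceeded the 95% critical value of Dixon's test, as a share of the group's range. For normally distributed values chance does this in about 1 in 20 groups. FPKM are bounded at 0 and need not be normal, and a group with 3 libraries listed at 0 is always singled out. Of the 34 groups of member values examined, 14 were singled out, many of them in the same libraries, which are not independent. The 14 of 34 therefore cannot be set against the 1 in 20.

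DSS_CS replicate 4 stood apart for 6 genes: Cfd at 104 FPKM (next highest 27.4), Adipoq at 13.0 (1.28), Plin1 at 1.14 (0.251), Car3 at 28.0 (3.86), Cidec at 13.8 (3.22) and Retn at 2.95 (0.618). CON_VD replicate 3 stood apart for 4 genes, with Adipoq at 8.46 FPKM (next 0.913), Fabp4 at 12.7 (4.01), Car3 at 29.5 (4.67) and Cidec at 6.58 (1.02). DSS_VD replicate 3 stood apart for Cfd at 12.6 FPKM (next 1.91), Plin1 at 0.107 and Retn at 0.0802, the last 2 against values of 0. CON_CS replicate 2 stood apart for Retn at 0.110 FPKM against values of 0.

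The DSS responses of cesarean-born and vaginally born mice differed by the interaction test in limma for 2 members, Cfd (log2 difference 5.68) and Car3 (3.88). The same held for 10 other genes among 54 tested in the 6 fat-related lists, where 6.68% of all genes tested were higher and 6.55% lower. Without the libraries that stand apart, the calls over all genes were 186 in place of 2015, and 2 of the 10 passed, Sncg and Me1. These 10 were G0s2 (2.22, adjusted p = 0.00941), Sncg (1.74, adjusted p = 0.00759), Dio2 (1.37, adjusted p = 0.0278), Cebpb (1.30, adjusted p = 0.0164) and Angptl4 (1.28, adjusted p = 0.0260). They were further Me1 (1.13, adjusted p = 0.00888), Mgll (0.84, adjusted p = 0.0465), Dgat1 (0.80, adjusted p = 0.0336), Masp1 (0.73, adjusted p = 0.00785) and Fitm2 (0.63, adjusted p = 0.0279).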

How the results depend on the processing

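Of 386 member differences under an alternative, 341 kept their direction and side of the threshold, 33 lost the call, 8 gained one and 4 changed sign. The sign changes were Lpl in DSS_CS over DSS_VD (-0.13 without DSS_VD replicate 2, -0.12 without the libraries that stand apart) and Cidec in DSS_VD over CON_VD (-0.51 with array weights, -0.23 without CON_VD replicate 2), neither called in any of these fits. With 1 replicate left out in turn, Lpl ran from -0.13 to 0.48 and Cidec from -0.23 to 0.72 in these comparisons. The cause was not tested. The count of members called in DSS_CS over DSS_VD, 1 as reported, was 0 with a pseudocount of 0.1, with no filter, with the replicate block, with array weights and without the libraries that stand apart, and 0 to 1 when 1 replicate was left out. In DSS_VD over CON_VD it was 3 with the replicate block (Lpl higher, Cfd and Car3 lower), 2 without the libraries that stand apart and 1 to 2 with 1 replicate left out. In DSS_CS over CON_CS it was 2 without the libraries that stand apart and 3 to 5 with 1 replicate left out, where fewer members passed the filter. In the interaction it was 1 with a pseudocount of 0.1, 0 with no filter, 1 with the replicate block and 3 with array weights. It was 0 without the libraries that stand apart, and 1 to 3 with 1 replicate left out. It was 0 without DSS_CS replicate 4 and CON_VD replicate 3, an alternative chosen after seeing the data. Over all genes, 1923 were called in DSS_CS over DSS_VD, 3 with no filter, 2 with the replicate block and 6 without the libraries that stand apart. Same-numbered libraries showed no strong shared deviation (r from -0.279 to 0.128, 2 of 16 pairs over 0.1). With 4 libraries per group this cannot exclude a pairing by number, and the samples were treated as unpaired. FPKM without counts leaves the precision of the low members unknown.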
